A study of Mus musculus with 12 samples.

Results

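The cytosolic ribosomal protein genes are described here across 3 lines of mouse embryonic stem (ES) cells in which *Xist* can be switched on. They were chosen by symbol: *Rpl* or *Rps* followed by a digit, together with *Rpsa*, *Rplp0*, *Rplp1* and *Rplp2*, leaving out the *Rps6k* kinases and symbols marked as pseudogenes. This matched 89 of the 24627 genes in the count files. Of these, 85 reached 1 CPM (counts scaled to the total of the library) in 6 or more of the 12 libraries and are called members below, out of 13191 genes that passed the same filter. The other 4 were *Rpl26*, *Rps27rt*, *Rpl32l* and *Rpl3l*. Of the 85 members, 76 encode proteins of the ribosome (31 of the small and 45 of the large subunit), 8 are paralogs of such genes, and *Rps19bp1*, which encodes a protein that binds Rps19, was matched by its name only. On the X chromosome lie 4 members, *Rpl10*, *Rpl36a*, *Rpl39* and *Rps4x*, and the other 81 are autosomal.

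A ribosome holds a single copy of nearly every ribosomal protein, so cells make these proteins in matched amounts from genes scattered over the genome, and the surplus of any one is degraded. Free Rpl5 and Rpl11, together with the 5S rRNA, bind the ubiquitin ligase Mdm2 and so link ribosome assembly to p53. In XY cells the X-linked members have a single copy each, and an X chromosome coated by *Xist* RNA is the only source of them.

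RNA-seq libraries were made from total RNA of J1 cells, which are XY ES cells, whose *Xist* gene is driven from its own locus by a doxycycline-inducible (TetO) promoter. All libraries came from cells differentiated for 2 days without LIF, with 1.5 µg/ml doxycycline (DOX) or without it (noDOX). *Xist* FL makes the full-length RNA, *Xist* ΔA lacks the A repeat, and *Xist* ΔB+C, made from *Xist* FL by CRISPR/Cas9, lacks the B and C repeats. *Xist* ΔA was an existing line that was not made from *Xist* FL in this work, so a difference between lines cannot be told apart from a difference between clones. Each of the 6 groups has 2 replicates, and *Xist* ΔB+C DOX replicate 2 was made from 100 ng of RNA by a low input method in place of 1000 ng.

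Libraries held between 31337490 and 41240470 counts, and *Xist* lay between 2.48 and 8.27 CPM without DOX and between 570 and 1791 CPM with DOX. With DOX it had 869 and 908 CPM in FL, 722 and 570 CPM in ΔA and 1791 and 1159 CPM in ΔB+C. The part of these unequal levels in differences between lines was not tested. Markers of ES cells were high in every library (*Pou5f1*, an ES cell transcription factor, between 1174 and 1770 CPM), and the 8 fibroblast markers summed to between 12.2 and 59.2 CPM, led by *Col1a1* (37.9 CPM at most), with *Postn* and *Lum* at 0 in some libraries. Their sums were 23.0 and 58.0 CPM in *Xist* FL noDOX and 15.60 and 18.96 CPM in *Xist* ΔA noDOX. The 6 endoderm markers summed to 41.8 and 68.9 CPM in *Xist* ΔB+C noDOX and to 82.2 and 130 CPM in *Xist* ΔB+C DOX, against 32.8 and 32.9 CPM in *Xist* FL noDOX and 40.2 and 71.1 CPM in *Xist* FL DOX. The part of either marker list in the results below was not tested.

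The X-linked members are spread along the chromosome. In mm10 (GENCODE vM21 positions), *Rps4x*, a protein of the small subunit, lies on the minus strand at X:102184941-102189394, its start 1.29 Mb from that of *Xist*. *Rpl10*, which joins the large subunit late in its maturation, lies on the plus strand at X:74270812-74273135, 29.2 Mb away. *Rpl36a* lies on the plus strand at X:134585654-134588062, 31.1 Mb away, and *Rpl39*, a very small protein of the exit tunnel, lies on the minus strand at X:37082520-37085402, 66.4 Mb away.

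Runs of pyrimidines are common near the starts of ribosomal protein genes. The stretches of 30 bases that hold the longest run of C and T (in capitals) in the 50 bases from the RefSeq start (GRCm38.p6) are shown for the X-linked members, since they carry the main comparison.
*Rpl10* (chrX:74270836-74270865, plus strand): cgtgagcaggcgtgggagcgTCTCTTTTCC
*Rpl36a* (chrX:134585672-134585701, plus strand): cggctctagCCTCTCTCTTTCCgagctgct
*Rpl39* (chrX:37085173-37085202, minus strand): gttcttccggtcccggCCTTTCTCTTCTCC
*Rps4x* (chrX:102189342-102189371, minus strand): cgcgcagcctccgaccctaaTTTCTTCgtt
The run was 10, 13, 14 and 7 bases long and began at base 41, 28, 37 and 41 from the RefSeq start, so none lies at the annotated start itself. Those of *Rpl10* and *Rpl39* reach base 50, where the search ended. RefSeq promoter entries matched 67 of the 89 genes, and a run of at least 8 bases was found in 56.7% of them, against 17.5% of all 27025 promoters. The letters CCGGAAG, bound by factors of the ETS family, occurred on either strand in the 250 bases before and 50 after the start in 37.3% of the 67 and in 9.12% of all promoters. The letters CCATNTT, bound by YY1, occurred in 29.9% and 16.3%, and TATAAA in 10.4% and 14.2%.

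The members together took between 8.75% and 10.5% of the counts of a library. Levels were compared between genes per kilobase of exon, as the mean CPM per kb over the 12 libraries. On this scale the highest were *Rplp1*, an acidic protein of the stalk, at 4150 CPM per kb, *Rps2*, a protein of the small subunit, at 4138, and *Rpl13*, of the large subunit, at 3478. The X-linked members sat in the middle of the range, *Rpl10* at 1582 CPM per kb (30th of the 84 members with an exon length), *Rps4x* at 1230 (47th), *Rpl36a* at 931 (55th) and *Rpl39* at 635 (66th).

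**Figure D1:**
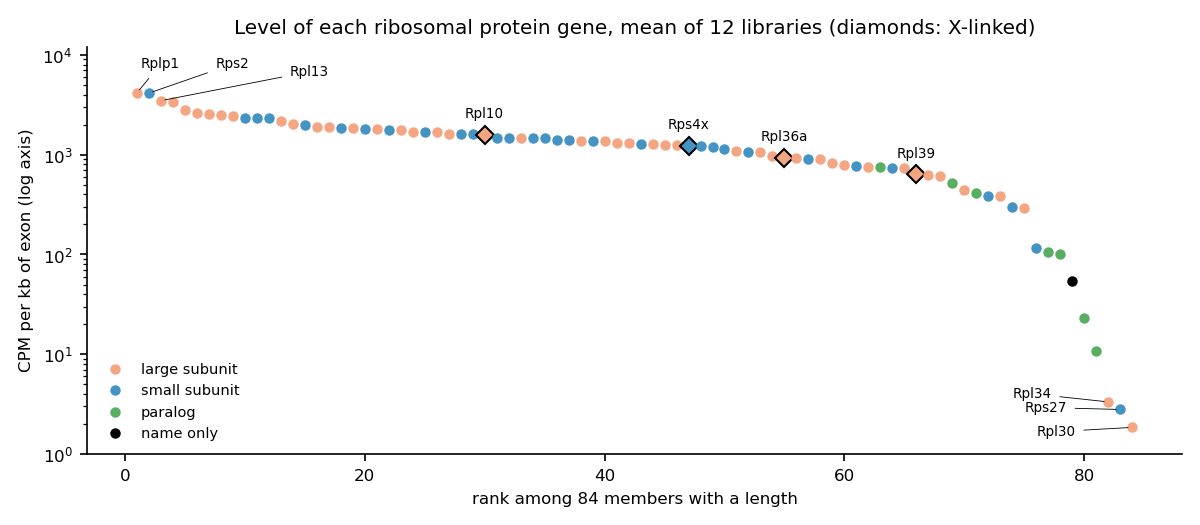
Mean level over 12 libraries, in CPM per kb of exon on a log axis, of the 84 members with an exon length, ordered by level and coloured by class, with the X-linked members as diamonds. The X-linked members sit between 635 and 1582 CPM per kb, among the bulk of the ribosomal proteins, and *Rpl34*, *Rps27* and *Rpl30* sit at the bottom, below 4 CPM per kb.

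Of the proteins of the ribosome, 3 were listed at very low levels, *Rpl34* at 3.33, *Rps27* at 2.80 and *Rpl30* at 1.85 CPM per kb, and *Rpl26* was listed at 0 in all 12 libraries. *Rpl34* had between 60 and 121 counts and *Rps27* between 35 and 97. The files also list *Gm15772* on chromosome 11 with *Rpl26*, and *Rps27rt* and *Rpl34-ps1* on chromosome 3 with *Rps27* and *Rpl34*, each at 0 counts in all 12 libraries. The files give no positions, so whether such entries overlap the members, and the part of the counting in these values, was not tested. Changes of these 4 genes are therefore not read as changes of the proteins' mRNA.

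The paralogs of the X-linked members are autosomal. Their coding sequences matched those of the X-linked gene at 84.7% of bases for *Rpl10l*, 87.7% for *Rpl36al* and 85% for *Rpl39l*. *Rpl36al* stood at 747 CPM per kb, below *Rpl36a* at 931, and *Rps4l* at 412. *Rpl10l*, a paralog known from the testis, and *Rpl39l*, also known from the male germ line, stood at 23.0 and 10.8 CPM per kb. How read pairs shared by such copies were divided cannot be seen from the counts, so the levels of paralogs are uncertain.

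With full-length *Xist* switched on, all 4 X-linked members had lower counts in both replicates, while the median autosomal member changed by -0.03 on the log2 scale. *Rps4x* had 1363 and 1346 CPM in the 2 noDOX libraries and 1055 and 928 CPM in the DOX libraries. *Rpl10* had 1404 and 1506 CPM without DOX and 1174 and 1064 CPM with DOX. The DOX libraries of all 4 X-linked members lay below the noDOX libraries without overlap, as did those of 25.7% of all tested genes. *Rpl36a* went from 535 and 523 CPM to 355 and 340 CPM. *Rpl39* went from 529 and 421 CPM to 350 and 250 CPM, the replicates of each group lying far apart. In the fit of 6 group means, none of the 4 passed the threshold of 0.05 on the adjusted p (edgeR's quasi-likelihood test with Benjamini–Hochberg adjustment over all genes tested), while 1.09% of all tested genes and 27.2% of the 464 tested X-linked genes other than *Xist* were called lower.

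The log2 (fold change) in FL was -0.45 for *Rps4x* (standard error 0.11, adjusted p = 0.112), -0.38 for *Rpl10* (0.10, adjusted p = 0.120), -0.61 for *Rpl36a* (0.19, adjusted p = 0.193) and -0.66 for *Rpl39* (0.42, adjusted p = 0.544). Libraries with the same replicate number deviated together, and when the replicate number entered as a block, the adjusted p fell to 0.00704, 0.0171, 0.0119 and 0.0877 at nearly the same changes, so that 3 of the 4 passed, where 8.13% of all tested genes and 80.6% of the X-linked genes did in that direction. DESeq2 in place of edgeR called 2 of the 4 lower.

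In ΔA no X-linked member was lower with DOX. *Rps4x* had 1446 and 1303 CPM without DOX and 1603 and 1432 CPM with DOX, and *Rpl10* had 1312 and 1340 against 1471 and 1439 CPM. *Rpl36a* had 562 and 456 against 623 and 506 CPM, and *Rpl39* had 509 and 321 against 584 and 341 CPM. Each gene was a little higher with DOX in both replicates, but only for *Rpl10* did the DOX and noDOX libraries not overlap. Of all tested genes, 10.9% lay above without overlap in this line. The log2 (fold change) lay between 0.13 and 0.16 for all 4 (adjusted p = 1 for each, with 0 of 13191 genes called lower and 1, *Xist*, called higher). The 95% interval was -0.11 to 0.40 for *Rps4x* and -0.08 to 0.35 for *Rpl10*.

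In ΔB+C the X-linked members reached their lowest levels in the series. *Rps4x* went from 1196 and 1321 CPM without DOX to 755 and 641 CPM with DOX. Its log2 (fold change) was -0.85 with a standard error of 0.11 (adjusted p = 0.00793), which is 55.5% of the noDOX level. *Rpl10* went from 1257 and 1494 CPM to 876 and 828 CPM, a log2 (fold change) of -0.69 (0.10, adjusted p = 0.0106). Both genes had no overlap between DOX and noDOX libraries, and both passed the test, where 2.13% of all tested genes and 34.3% of the X-linked genes were called lower. *Rpl36a* went from 484 and 470 CPM to 327 and 214 CPM (log2 change -0.82, standard error 0.19, adjusted p = 0.0557), and *Rpl39* from 461 and 371 CPM to 375 and 154 CPM (log2 change -0.65, standard error 0.42, adjusted p = 0.445). Of the 4, *Rpl39* alone had overlapping DOX and noDOX libraries, while 23.3% of all tested genes lay below without overlap. The lowest value of all 4 came from the low input library. For *Rpl39* the other ΔB+C DOX library, at 375 CPM, lay above both FL DOX libraries (350 and 250 CPM). Without ΔB+C DOX replicate 1 the change of *Rpl39* was -1.43 and without the low input library -0.15, and that of *Rpl36a* was -1.15 and -0.54.

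With the replicate block, *Rps4x* (adjusted p = 0.000111), *Rpl10* (adjusted p = 0.000457) and *Rpl36a* (adjusted p = 0.00179) passed in ΔB+C, where 12% of all tested genes and 75.6% of the X-linked genes were called lower, and *Rpl39* did not (adjusted p = 0.0519). Without the low input library, none of the 4 passed in the fit of group means, with log2 changes of -0.74 for *Rps4x* and -0.65 for *Rpl10*, and none passed without ΔB+C noDOX replicate 2 either. Without the low input library and with the block, *Rps4x*, *Rpl36a* and *Rpl10* passed.

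**Figure D2:**
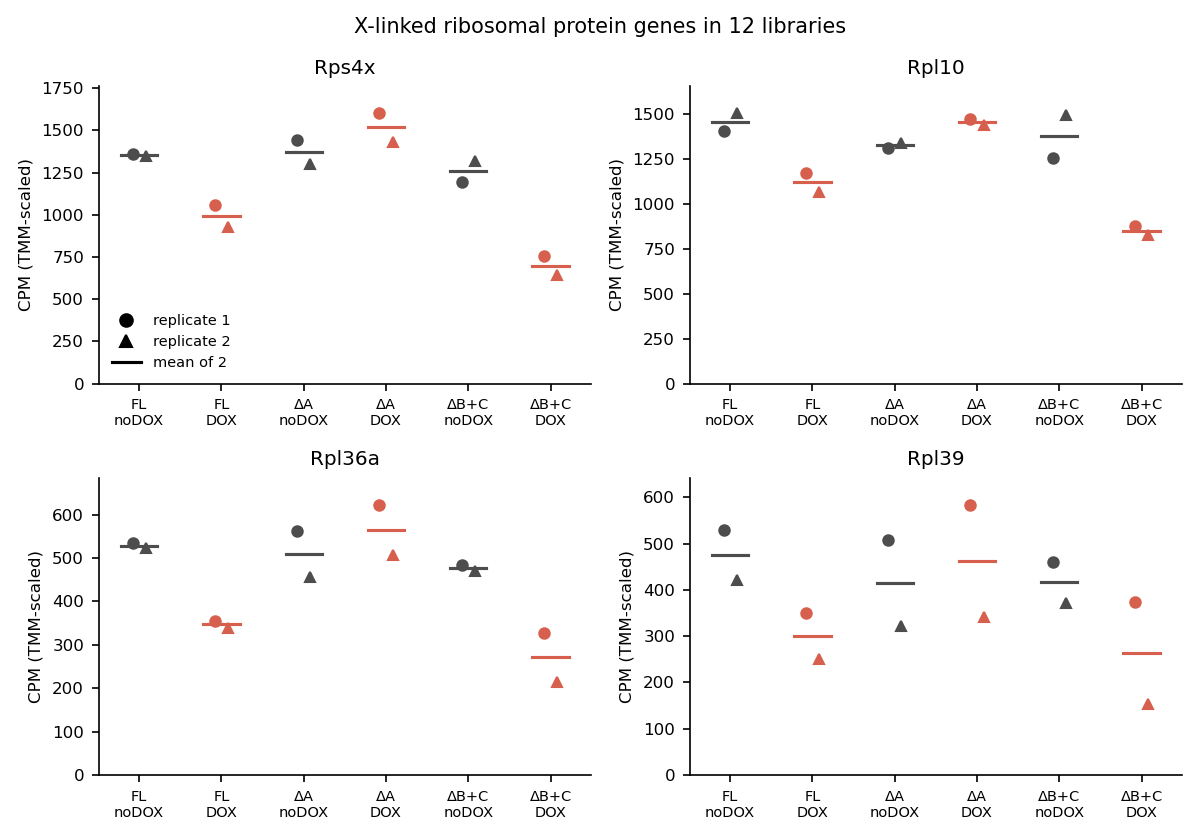
Level of each X-linked member, in TMM-scaled CPM, in the 2 replicates (circle and triangle) of the 6 groups, with noDOX in grey, DOX in red and the mean of the 2 as a line. The DOX values lie below the noDOX values in FL and, except for 1 *Rpl39* library, in ΔB+C, and lie slightly above them in ΔA for the same replicate number.

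In FL the changes of the X-linked members were smaller than those of most X-linked genes. Their median log2 (fold change) was -0.53, against -0.85 over the 464 tested X-linked genes, and between 308 (for *Rpl39*) and 392 (for *Rpl10*) of the 464 fell further than the member did. In ΔB+C the median of the members was -0.75 and that of the X-linked genes -0.78, with 196 (for *Rps4x*) to 283 (for *Rpl39*) of the 464 falling further. In ΔA the X-linked genes had a median of -0.14 and the members one of 0.15. In these bulk libraries, fewer cells with a silenced gene and a smaller fall in each cell cannot be told apart. The study scored *Xist*-coated cells by RNA FISH, and the changes here are not adjusted for that share.

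The difference between the DOX responses of 2 lines was tested for each member. Between ΔB+C and ΔA, the response of *Rps4x* differed by -0.99 on the log2 scale (95% interval -1.35 to -0.63, adjusted p = 0.0558) and that of *Rpl10* by -0.83 (-1.13 to -0.52, adjusted p = 0.0626). Neither passed in the fit of group means, in which 0.159% of all tested genes were called lower. With the replicate block, *Rps4x* (adjusted p = 0.00128), *Rpl10* (adjusted p = 0.00364) and *Rpl36a* (adjusted p = 0.0104) passed, among 5.09% of all tested genes. Between FL and ΔA the differences were -0.59 for *Rps4x*, -0.51 for *Rpl10* and -0.76 for *Rpl36a*, with adjusted p-values of 0.364, 0.363 and 0.569 (0 of 13191 genes passed). In the blocked fit they were 0.0268, 0.0481 and 0.0481, so these 3 passed, where 1.99% of all tested genes were called lower. The noDOX and DOX libraries of ΔA enter both comparisons.

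Between ΔB+C and FL, 3 of the X-linked members had the more negative change in ΔB+C and none passed the test. The difference was -0.40 for *Rps4x* (95% interval -0.76 to -0.04), -0.31 for *Rpl10* (-0.62 to -0.0040), -0.21 for *Rpl36a* (-0.81 to 0.39) and 0.01 for *Rpl39* (-1.32 to 1.34), with an adjusted p of 1 for each. No gene passed in this comparison in either fit. Before adjustment, edgeR's test put 63 of the 13191 genes lower and 43 higher at the same threshold, with *Rps4x* and *Rpl10* among the former, and the median over the 464 X-linked genes was 0.05. *Xist* itself had 1791 and 1159 CPM in ΔB+C DOX and 869 and 908 CPM in FL DOX, and its part here was not tested.

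Among the autosomal members, none passed in any line in the fit of group means, with 0.144%, 0.00758% and 0.811% of all tested genes called higher in FL, ΔA and ΔB+C. Before adjustment, edgeR's test put 1 lower in FL, 1 higher in ΔA and 3 lower in ΔB+C at the same threshold, beside 8.13%, 0.243% and 10.7% of all tested genes, and DESeq2 and limma-voom called none. The median log2 (fold change) over the 81 was -0.03 in FL, 0.15 in ΔA and -0.07 in ΔB+C, beside medians of 0.00 to 0.01 over all autosomal genes tested. In ΔA, 79 of the 81 were higher with DOX in replicate 1 and 80 of the 81 in replicate 2, while 31 had both DOX libraries above both noDOX libraries and none had both below. In that line, 10.9% of all tested genes lay above and 12.5% below without overlap. In FL 15 of the 81 lay below and 7 above (25.7% and 22.5% of all tested genes), and in ΔB+C 18 below and 1 above (23.3% and 19.7%). Scaled by library totals, the median in ΔA was 0.11, and that over all tested genes was -0.04, against 0.00 with TMM scaling. In ΔB+C, 29 of the 81 were lower with DOX in replicate 1 and 75 in replicate 2, the pair that holds the low input library.

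**Figure D3:**
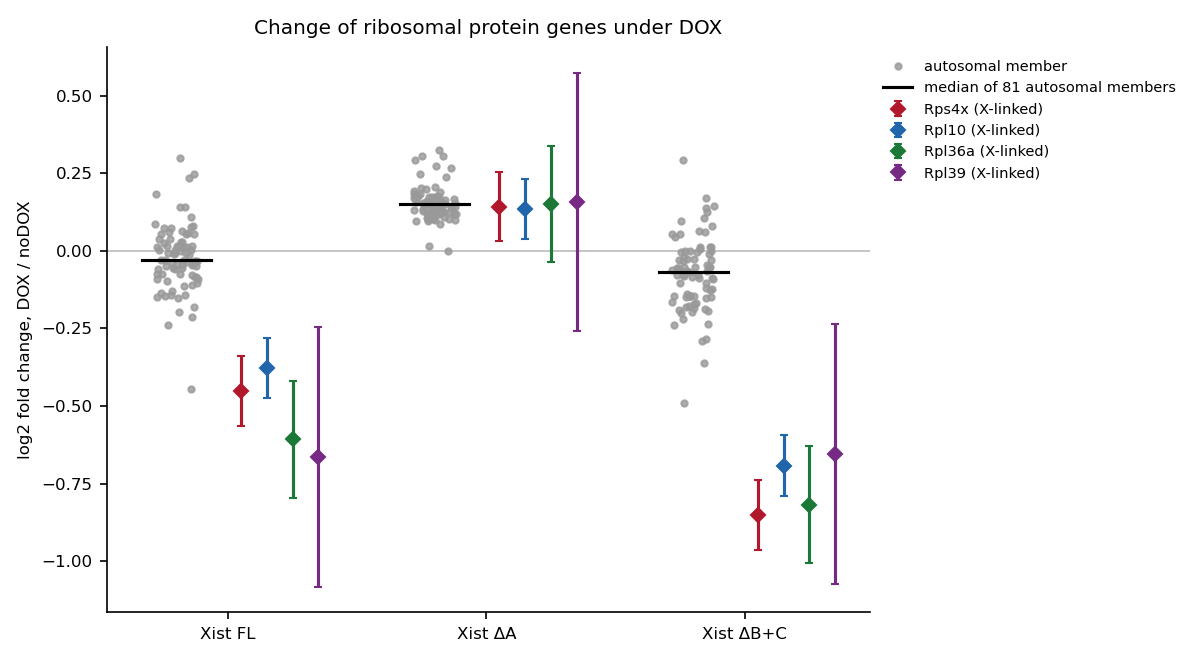
Log2 (fold change), DOX over noDOX, of the 81 autosomal members (grey points, with their median as a black line) and the 4 X-linked members (diamonds, with the standard error as bars) in each line, from the fit of group means. The X-linked members lie at or below -0.38 in FL and at or below -0.65 in ΔB+C, and between 0.13 and 0.16 in ΔA, among the autosomal members.

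The proteins with known roles outside the subunits' core showed small changes. *Rpl11*, a partner of Mdm2, had 1143 and 1263 CPM in ΔB+C noDOX and 1027 and 947 CPM in ΔB+C DOX, and its log2 change was -0.29 (standard error 0.10, adjusted p = 0.164, or 0.0430 with the block). *Rpl5*, the other partner, had 1550 and 1671 against 1523 and 1387 CPM, a log2 (fold change) of -0.15 (adjusted p = 0.463). In FL the changes were -0.06 for *Rpl11* and -0.11 for *Rpl5*. Of the stalk proteins, *Rplp0* changed by -0.04 in FL and -0.18 in ΔB+C, *Rplp1* by -0.05 and -0.15, and *Rplp2* by 0.04 and 0.04, and *Rpsa*, also known as the laminin receptor, changed by 0.07 and -0.05. None of these passed, apart from *Rpl11* with the block.

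The autosomal members with the smallest p under DOX were *Rpl22l1* and *Rps4l* in FL, *Rpl12* and *Rpsa* in ΔA, and *Rpl10a* and *Rpl11* in ΔB+C. *Rpl22l1*, a paralog of *Rpl22* that can take its place on the ribosome, had 96.5 and 103 CPM in FL noDOX and 69.8 and 76.4 CPM in FL DOX (log2 change -0.45, adjusted p = 0.318, or 0.0705 with the block). It also had 85.8 and 78.4 CPM in ΔB+C noDOX and 69.3 and 47.6 CPM in ΔB+C DOX (log2 change -0.49, adjusted p = 0.185, or 0.0377 with the block). *Rpl10a* had 1038 and 1085 against 931 and 868 CPM in ΔB+C (log2 change -0.24, adjusted p = 0.145, or 0.0316 with the block). With the block 3 autosomal members, these 2 and *Rpl11*, were thus called lower in ΔB+C, a smaller share than the 12% over all genes.

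No paralog of an X-linked member was called lower under DOX. *Rps4l* had 288 and 319 CPM in FL noDOX and 351 and 397 CPM in FL DOX, without overlap, as for 22.5% of all tested genes. Its log2 (fold change) was 0.30 (adjusted p = 0.510, or 0.0367 with the block, where 5.72% of all genes were called higher). In ΔB+C its log2 (fold change) was 0.08 (adjusted p = 0.855). *Rpl36al* changed by -0.14 in FL and -0.20 in ΔB+C, *Rpl10l* by 0.25 and 0.29, and *Rpl39l* by 0.24 and 0.17, none past the threshold in either fit. *Rpl10l* and *Rpl39l* differed more between replicates than between treatments: *Rpl10l* was between 11.5 and 27.0 CPM in every replicate 1 library and between 22.1 and 41.7 CPM in every replicate 2 library.

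The X-linked share of all counts on members summarises these changes without a scale factor. It was 3.79% and 3.60% in FL noDOX and 2.93% and 2.53% in FL DOX. In ΔA noDOX it was 4.01% and 3.90%, against 4.04% and 3.82% in ΔA DOX. In ΔB+C noDOX it was 3.75% and 3.57%, against 2.53% and 2.12% in ΔB+C DOX. The DOX libraries lay below the noDOX libraries in FL and ΔB+C and on both sides of them in ΔA. As a share of the whole library, the X-linked members took 0.381% (95% Wilson interval 0.379 to 0.383) and 0.379% (0.377 to 0.381) of counts in FL noDOX, and 0.294% (0.292 to 0.295) and 0.258% (0.256 to 0.259) in FL DOX. Such intervals hold counting error within 1 library alone, not the spread between replicates. They treat read pairs as independent, although PCR copies of a pair count as separate pairs. The shares in ΔB+C noDOX were 0.342% and 0.358%, and those in ΔB+C DOX 0.238% and 0.185%. The autosomal members took 9.91% ± 0.341 of counts (SD, n = 2) in FL noDOX and 9.84% ± 0.15 in FL DOX, and 9.23% ± 0.651 and 8.87% ± 0.429 in ΔB+C.

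**Figure D4:**
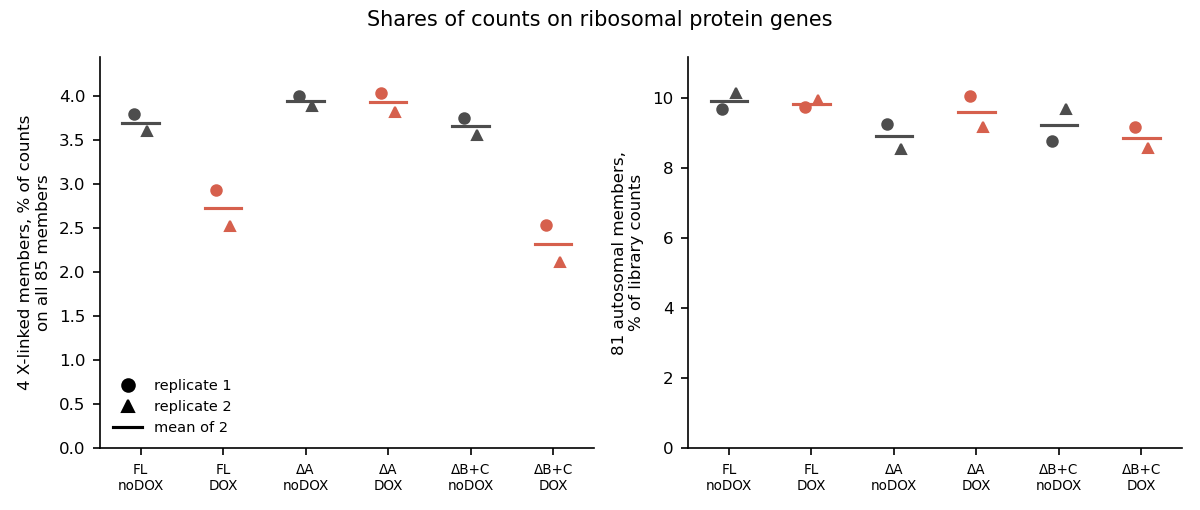
Left, counts on the 4 X-linked members as a percentage of counts on all 85 members in each library, and right, counts on the 81 autosomal members as a percentage of all counts, with replicates as circle and triangle and their mean as a line. The left share is 2.12% to 2.93% in the 4 DOX libraries of FL and ΔB+C and 3.57% to 4.04% in the other 8, while the right share overlaps between DOX and noDOX in all 3 lines.

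Measured against the rest of the ribosome in the same library, as the log2 ratio of a member's CPM to the median CPM of the autosomal ribosomal proteins, *Rps4x* went from 0.12 ± 0.07 to -0.29 ± 0.15 in FL (SD, n = 2), from 0.40 ± 0.05 to 0.38 ± 0.02 in ΔA, and from 0.19 ± 0.04 to -0.55 ± 0.01 in ΔB+C. *Rpl10* went from 0.22 ± 0.01 to -0.11 ± 0.11, from 0.35 ± 0.18 to 0.32 ± 0.11, and from 0.31 ± 0.11 to -0.26 ± 0.10 in the same order. Both genes thus passed from above to below the median ribosomal protein in the FL and ΔB+C lines. These ratios are given without a test.

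Without DOX, some members on chromosome 11 differed between ΔA and FL, as did many other genes of that chromosome. In ΔA against FL, 5 of the 81 autosomal members were lower and none higher. That share is like the 5.54% of all tested genes called lower, while 4.3% were called higher. Of the 5, *Rpl19*, *Rps27a* and *Rpl23a* lie on chromosome 11, which carries 6 members. *Rpl19*, of the large subunit, had 1753 and 1847 CPM in FL noDOX, 1226 and 1166 CPM in ΔA noDOX and 1403 and 1605 CPM in ΔB+C noDOX. The log2 difference of ΔA from FL was -0.59 (standard error 0.09, adjusted p = 0.00476). *Rps27a*, made as a fusion with ubiquitin, had 1307 and 1475 CPM in FL noDOX and 925 and 865 CPM in ΔA noDOX (log2 difference -0.64, adjusted p = 0.0134). *Rpl23a* differed by -0.60 (adjusted p = 0.0186).

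All 6 members on chromosome 11, with *Rpl23*, *Rpl27* and *Rpl38* besides these 3 (named after their values were seen), had log2 differences between -0.53 and -0.64. Their median was -0.59, against -0.34 over the other 1107 tested genes of chromosome 11, of which 23.1% were called lower. Over the 75 members on other autosomes the median was -0.13, against 0.03 over the other 11533 genes there, of which 3.88% were called lower. In ΔB+C against FL the chromosome 11 members had a median of -0.30, the other genes of chromosome 11 one of -0.15 and the members on other autosomes one of -0.11, and no member passed in either fit (0% and 0.0227% of all tested genes lower and higher with group means, 0.379% and 0.614% with the block). The smallest p there belonged to *Rps27a* (log2 difference -0.40, adjusted p = 0.652) and *Rpl19* (-0.26, adjusted p = 0.689). DNA copy number was not measured here.

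**Figure D5:**
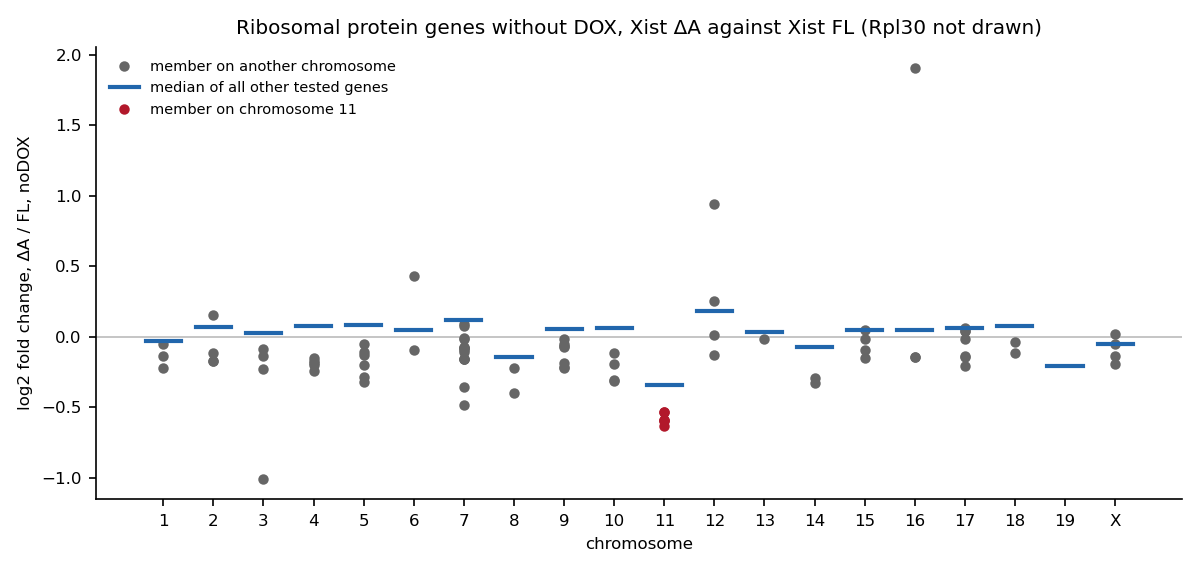
Log2 (fold change) without DOX, ΔA over FL, of each member (points, chromosome 11 in red) by chromosome, with the median of all other tested genes on that chromosome as a blue line. *Rpl30*, at 0 counts in ΔA, is not drawn. The 6 members on chromosome 11 lie between -0.53 and -0.64, below the median of that chromosome's other genes at -0.34.

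The other members called lower in ΔA were *Rpl22l1* and *Rpl30*. *Rpl22l1* had 96.5 and 103 CPM in FL noDOX and 52.5 and 46.7 CPM in ΔA noDOX, a log2 difference of -1.01 (standard error 0.18, adjusted p = 0.0115). *Rpl30* had between 72 and 116 counts in each FL and ΔB+C library and 0 counts in all 4 ΔA libraries. With 3 counts per library as the smallest detectable number, its listed level was at least 27.9-fold higher in FL noDOX than in ΔA noDOX. These levels were low in every line (3.25 CPM at most), and the difference is not read as one of its mRNA. With the replicate block 16 autosomal members were lower and 3 higher in ΔA, among 17.2% and 16.2% of all tested genes, the higher ones being *Rpl10l* (log2 difference 1.00, adjusted p = 0.000208), *Rps4l* (0.43, adjusted p = 0.00253) and *Rpl39l* (2.19, adjusted p = 0.0116). *Rpl39l* had 12.8 and 18.5 CPM in ΔA noDOX, and 1.63 and 6.73 CPM in FL noDOX. No X-linked member passed between the lines without DOX (log2 differences between -0.20 and 0.02 in ΔA and between -0.19 and -0.08 in ΔB+C), with adjusted p-values of at least 0.425.

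Members differed between replicates 1 and 2 no more often than tested genes as a whole. In the blocked fit, 2 X-linked and 17 autosomal members were lower and 11 autosomal members higher in replicate 2, among 23.5% and 22.7% of all tested genes. *Rpl39* was lower in replicate 2 in 6 of 6 groups, with log2 differences from -0.31 to -1.28, the largest gap being that of ΔB+C DOX with its low input library (log2 difference between replicates -0.64 in the fit, adjusted p = 0.00639). *Rpl36a* was lower by 0.22 in the fit (adjusted p = 0.0278), and *Rpl10l* higher by 0.83. *Rps4x* and *Rpl10*, whose falls under DOX passed in ΔB+C, did not pass by replicate number (log2 differences -0.10 and 0.02, adjusted p = 0.122 and 0.757).

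Other genes of translation and ribosome production were described from lists. Of 22 genes for translation factors and related mRNAs, none passed in any line in the fit of group means, with medians of 0.00 in FL, 0.13 in ΔA and -0.05 in ΔB+C (3 lower in ΔB+C and none elsewhere before adjustment in edgeR's test, where 10.7% of all tested genes were lower in ΔB+C). With the block 3 of the 22 were lower in ΔB+C (*Eef1d*, *Eif3e* and *Naca*) and none elsewhere, where 12% of all tested genes were. Of 40 genes for ribosome assembly, 1 was lower in FL and 2 in ΔB+C with group means, beside 1.09% and 2.13% of all tested genes. Both are X-linked genes: *Gnl3l*, a nucleolar GTPase (log2 change -0.90 in FL, adjusted p = 0.00249, and -1.19 in ΔB+C, adjusted p = 0.000577), and, in ΔB+C, *Dkc1*, the pseudouridine synthase of rRNA (-0.43, adjusted p = 0.0252). The list's median was -0.06, 0.09 and -0.12 in the 3 lines. With the block 3 were lower in FL (8.13% of all tested genes), the autosomal *Gnl2* besides these X-linked genes, and 6 in ΔB+C (12%), with the autosomal *Gnl2*, *Nop10*, *Rrs1* and *Polr1d*. Of 9 X-linked genes for translation and RNA handling, which include *Gnl3l* and *Dkc1* again, all 9 had a negative change in FL and in ΔB+C, with medians of -0.90 and -0.78. Beside 27.2% and 34.3% of all X-linked genes, 2 and 4 of these 9 passed with group means. Among these were *Eif1ax*, an initiation factor (-0.96 and -1.11, adjusted p = 0.0428 and 0.0166), and *Eif2s3x*, a subunit of the factor that carries the initiator tRNA (-0.44, adjusted p = 0.0736, and -0.55, adjusted p = 0.0227). With the block all 9 passed in both lines, beside the 80.6% and 75.6% of all X-linked genes.

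Of 16 target genes of p53, none passed in any line in the fit of group means, with medians of 0.25 in FL, -0.18 in ΔA and 0.39 in ΔB+C (2 higher in each of FL and ΔB+C before adjustment, beside 5.37% and 8.1% of all tested genes). With the block 6 were higher in FL and 11 in ΔB+C, against 5.72% and 9.89% of all tested genes, and none in ΔA, where 0.0152% of all tested genes were called lower and 0.00758% higher. They included *Mdm2* (log2 change 0.65 in FL and 1.00 in ΔB+C, adjusted p = 0.00283 and 0.000160), *Plk2* (0.73 and 0.92, adjusted p = 0.0154 and 0.00368), *Btg2* (0.29 and 0.50, adjusted p = 0.0434 and 0.00256) and *Tnfrsf10b* (0.30 and 0.39, adjusted p = 0.0389 and 0.00788). The X-linked *Eda2r* had 65.1 and 36.4 CPM in FL noDOX and 57.0 and 38.4 CPM in FL DOX. In ΔB+C *Eda2r* had 55.0 and 38.2 CPM without DOX and 72.6 and 49.9 CPM with DOX. *Cdkn1a* (named after its values were seen) had 135 and 86.2 CPM in FL noDOX and 132 and 87.0 CPM in FL DOX. In ΔB+C *Cdkn1a* had 126 and 86.9 CPM without DOX and 149 and 117 CPM with DOX. The ES cell markers had medians of 0.37, 0.09 and 0.12 in the 3 lines and the endoderm markers of 0.45, -0.25 and 0.52, and their part in these values was not tested.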

How the data were processed

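The authors mapped paired reads to mm10 with TopHat 2.1.0 and the refFlat annotation, counted read pairs on exons with featureCounts 1.5.1, and deposited these counts without normalization, 1 file per library. Members and gene lists were chosen with earlier results of these data known. Members, paralogs, partners of Mdm2, stalk proteins and the autosomal members past the threshold or with the smallest p were named by rule, and others are marked where named. Genes that reached 1 CPM in 6 or more libraries entered the test of edgeR 4.0.16 in R 4.3.3 (robust quasi-likelihood test, 6 group means, 6 residual degrees of freedom, TMM factors from expressed autosomal genes), with Benjamini–Hochberg adjustment over 13191 genes and a threshold of 0.05. Replicate numbers come from the labels. The difference between replicates 2 and 1 correlated across autosomal genes in every one of 15 pairs of groups (r between 0.399 and 0.820), so they were taken as pairs in a second, blocked fit. The study calls the replicates biological duplicates, and p-values measure the spread between these samples. Positions and exon lengths came from GENCODE vM21 (the mm10 assembly). DESeq2 1.42.0, limma-voom (limma 3.58.1), other scalings and filters, and leaving out each library were alternatives, and the steps were tested on simulated data. Figures were drawn with matplotlib 3.10.9.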

Additional observations from a re-analysis of the deposited data

Results flagged for a closer look

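The response of some members to DOX differed between lines by the test of the difference itself, in each case in the fit with the replicate block (edgeR) and not in the fit of group means. Between ΔB+C and ΔA these were the X-linked *Rps4x* (-0.999 on the log2 scale), *Rpl36a* (-0.99) and *Rpl10* (-0.82), and the autosomal *Rpl22l1* (-0.80, adjusted p = 0.0417), *Rpl11* (-0.45, adjusted p = 0.0475), *Rpl10a* (-0.39, adjusted p = 0.0318) and *Rpl36al* (-0.39, adjusted p = 0.0432). Those are 4 of the 81 autosomal members, a share like the 5.09% of all tested genes called lower in that fit. Between FL and ΔA they were *Rpl36a* (-0.76), *Rps4x* (-0.60) and *Rpl10* (-0.51), and no autosomal member. Of the 81 autosomal members, 79 had a negative difference between ΔB+C and ΔA, with a median of -0.25. In the fit of group means, the median difference over all tested genes was -0.005. The changes of the autosomal members there had medians of 0.15 in ΔA and -0.07 in ΔB+C. With 2 replicates per group, no single library could be marked as an outlier.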

How the results depend on the processing

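With the replicate block, X-linked members called lower went from 0 to 3 in FL, from 2 to 3 in ΔB+C, and from 0 to 3 for both differences from ΔA. Autosomal members called under the block were 1 higher in FL, 3 lower in ΔB+C, 4 lower for ΔB+C minus ΔA, and 16 lower and 3 higher in ΔA against FL. The fit with the block and without the low input library was an alternative chosen after seeing the data. Shares over all tested genes were not computed for fits without 1 library, so counts of members from such fits cannot be set against them. DESeq2 called 2 X-linked members in FL, and 3 X-linked and 2 autosomal members for ΔB+C minus ΔA, where it called 4.32% and 3.01% of all tested genes in either direction. Without a filter 2 X-linked members passed in that difference, where 0.22% of 20921 genes were called in either direction. With the 4 libraries of ΔB+C alone none passed in that line. That fit has only 2 residual degrees of freedom and its share over all tested genes was not computed, so this count cannot be set against all genes. Without the members on chromosome 11 (also chosen after seeing the data), 2 members were lower in ΔA against FL, or 11 lower and 3 higher with the block. Leaving out 1 library at a time gave 0 to 3 X-linked members lower in ΔB+C, the 0 without ΔB+C noDOX replicate 2 or DOX replicate 2, and 1 to 6 autosomal members lower in ΔA against FL, the 1 without ΔA noDOX replicate 2. The change of *Rpl39* then ranged from -0.93 to -0.44 in FL and from -1.43 to -0.15 in ΔB+C, and that of *Rpl36a* in ΔB+C from -1.15 to -0.54. In ΔA the change of *Rpl39* ranged from -0.28 to 0.53 (-0.14 without noDOX replicate 2, -0.28 without DOX replicate 1) and that of *Rpl36a* from -0.0088 (without DOX replicate 1) to 0.31. Limma-voom, the scalings and the stricter filter moved no count by over 1.5 times, and the causes of the shifts were not tested. No scaling moved the median of all genes by over 0.1. At 2 replicates per group and this depth, *Rpl39*, whose replicates differed most among the X-linked members, allowed 95% intervals of -1.61 to 0.28 in FL and -1.60 to 0.29 in ΔB+C.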
